A study of Bos taurus with 6 samples.

Results

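Reduced representation bisulfite sequencing (RRBS) of cattle sperm, monocytes and fibroblasts covered 1542060 autosomal CpGs by 5 to 500 reads in all 6 libraries. Of these, 5512 (0.357%) had methylation above 60% in cultured fibroblasts and below 20% in each of the other 2 cell types. They were chosen on the values themselves. The methylated reads of the 2 libraries of a cell type were summed and divided by their summed coverage, and a CpG was kept when this percentage was above 60 in fibroblasts, below 20 in sperm and below 20 in monocytes. The same thresholds applied to the other cell types chose 8999 CpGs methylated only in monocytes and 13569 methylated only in sperm, and 545675 CpGs were below 20% in all 3.

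Methylation was measured in 2 libraries per cell type, each from a different Holstein animal. The sperm came from commercial semen straws of 2 bulls, the monocytes were purified from the blood of 2 cows, and the fibroblasts were derived from ear skin of 2 other cows, called adult heifers in the study's methods, and grown over several passages in culture, so that each fibroblast library stands for 1 culture. The labels name no treatment, genotype or age. Fibroblasts were the only cultured cells and sperm the only male cells. Between fibroblasts and sperm, cell type, culture and sex cannot be told apart. Between fibroblasts and monocytes, both from cows, cell type and culture cannot be told apart. The monocyte libraries had 12 PCR cycles and the others 14. The reads summed over CpGs ranged from 45884839 to 78890776 per library, and the median coverage of the chosen CpGs ranged from 16 reads in monocytes replicate 2 to 24 in fibroblasts replicate 2. At this coverage the percentage of 1 CpG is coarse, and the intervals given for single CpGs cover the counting error only. A UMD3.1 annotation was not used here, so that CpGs are given by position and the cell types could not be checked against markers.

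In mammals, methylation is found mostly on the cytosine of CpG dinucleotides and is high over most of the genome. Stretches dense in CpGs, the CpG islands, often cover the start of genes and usually stay unmethylated, and dense methylation there goes with a silent gene. Methylation differs between cell types, is rebuilt in the germ line, and is known to change at some loci when cells are grown in culture. RRBS cuts DNA at CCGG sites and therefore reads mainly CpG-dense DNA, in short fragments of 40 to 290 bp.

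Averaged over the 5512 CpGs, methylation was 80.1% ± 1.84 (SD, n = 2) in fibroblasts, 6.13% ± 0.272 in monocytes and 2.56% ± 0.129 in sperm. The library means were 78.8% and 81.4% in fibroblasts, 6.32% and 5.94% in monocytes, and 2.65% and 2.47% in sperm. These levels follow from the choice and were not tested. The 10th percentile was 54.2% in fibroblasts replicate 1 and 60.7% in replicate 2, and the upper quartile started at 93.9% and 94.1%. A full 100% was read at 17% of the CpGs in fibroblasts replicate 1 and at 15.5% in replicate 2. At the other end, the sperm libraries had no methylated read at 74.1% and 72.3% of the positions, and the monocyte libraries at 45.4% and 50.3%.

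**Figure D1:**
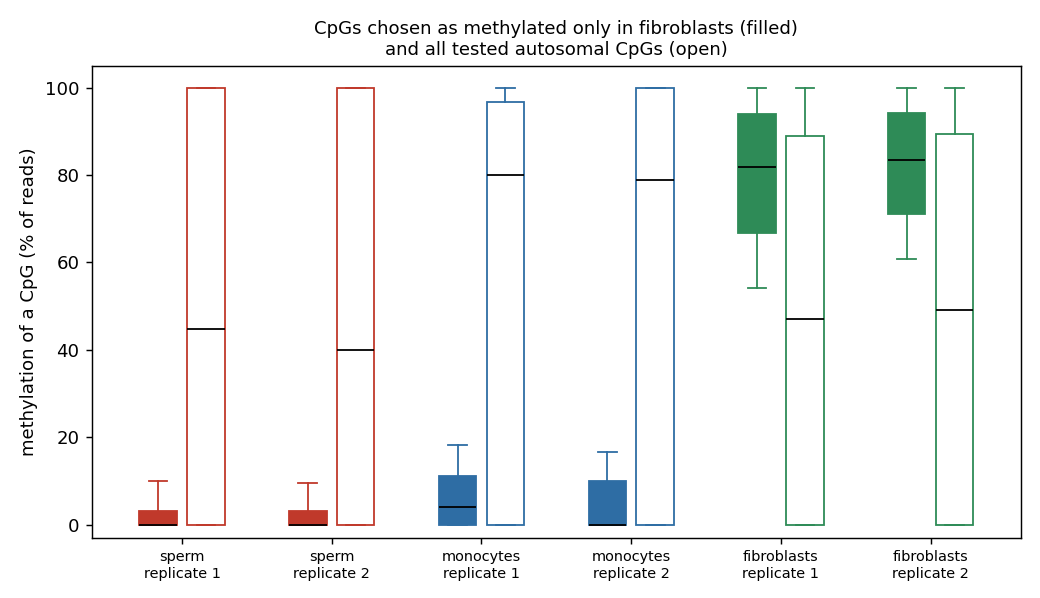
Methylation of a CpG (y axis, percent of reads) in each of the 6 libraries (x axis), for the 5512 chosen CpGs (filled) and all 1542060 tested CpGs (open). Boxes span the quartiles, black lines are medians, and whiskers reach the 10th and 90th percentiles. The chosen CpGs have medians of 81.8% and 83.3% in the fibroblast libraries and of 0% to 4% in the other 4, as the choice requires.

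The chosen CpGs had no gap in level to their neighbours at the thresholds. Just inside, 756 CpGs had above 60% to 65% methylation in fibroblasts, with library medians of 59.1% and 65.7%, and 1010 CpGs lay just outside at 55% to 60%, with medians of 54.5% and 60%. For monocytes, 668 CpGs lay just inside (15% to below 20%) and 541 just outside (20% to below 25%). For sperm the numbers were 180 and 127. Among all CpGs below 20% in both sperm and monocytes, 95.6% were below 20% in fibroblasts too, 14737 had 20% to 40%, 4784 had 40% to 60%, 2796 had above 60% to 80% and 2716 more than 80%. The count thus fell from class to class up to 80% and was nearly level above it.

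Monocytes were the less empty of the 2 low cell types. Over the 5512 CpGs their mean was 3.56 points above that of sperm, against 0.514 points over the CpGs low in all 3 cell types. Monocytes had the higher percentage at 58.7% of the CpGs and sperm at 21.8%. A monocyte level of 10% to 20% was found at 1537 of the chosen CpGs (27.9%), and such a sperm level at 477 (8.65%). Both cell types were bounded by the choice, so that this difference is a description. Among CpGs low in sperm and monocytes, the monocyte mean was 1.17% where fibroblasts had less than 20% and showed little further change from 20% upward. It was 5.99% where fibroblasts had 20% to 40%, 6.33% at 40% to 60%, 6.12% at 60% to 80% and 6.09% above 80%. The sperm mean went from 0.652% in that lowest class to 1.65%, 1.98%, 2.34% and 2.73% in the others.

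The next question was how far each library, rather than the sum of 2, showed the pattern. All 6 libraries were past their thresholds at 3271 of the CpGs (59.3%), and both fibroblast libraries were above all 4 others at 5487 (99.5%). Both counts follow largely from the choice. The 3271 are all such CpGs among the 1542060 tested, and the second order was not counted over all tested CpGs. Both fibroblast libraries exceeded 60% at 4016 CpGs (72.9%). Only replicate 2 did so at 952 and only replicate 1 at 544. Replicate 2 had the higher median coverage and so on the whole weighed more in the sums that chose the CpGs. Whether this shaped these counts was not tested. A fibroblast library below 20% was met at 15 CpGs, 12 of them in replicate 1 and 3 in replicate 2. The 4 sperm and monocyte libraries were all below 20% at 4479 CpGs (81.3%).

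**Figure D2:**
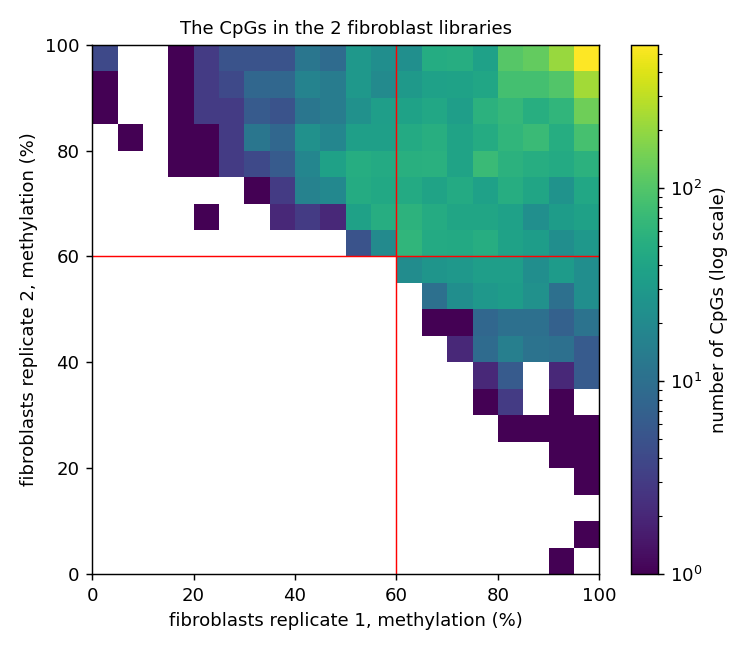
Methylation of the 5512 chosen CpGs in fibroblasts replicate 1 (x axis, %) and replicate 2 (y axis, %), as the number of CpGs per square of 5 by 5 points (colour, log scale). Red lines mark 60%. Of the CpGs, 4016 lie above both lines, 952 above that of replicate 2 only and 544 above that of replicate 1 only, and the empty lower left corner follows from the choice.

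The fibroblast libraries differed by a median of 11.4 points at the chosen CpGs, against 4.64 points at all tested CpGs, most of which were near 0% or 100%. At 1229 CpGs (22.3%) they lay at least 25 points apart, which was the case at 9.67% of all tested CpGs. The same gap was found between the sperm libraries at 70 of the chosen CpGs (1.27%) and between the monocyte libraries at 145 (2.63%). In two-sided Fisher's exact tests with Benjamini-Hochberg adjustment over all tested CpGs (adjusted p below 0.01 and a difference of at least 25 points), 66 of the 5512 CpGs (1.2%) differed between the fibroblast libraries, beside 0.349% of all tested CpGs. Of these 66, 52 were higher in replicate 2 and 14 in replicate 1. Over all tested CpGs, 2838 were higher in replicate 2 and 2540 in replicate 1. Replicate 2 had the higher coverage at the chosen CpGs (median of 24 reads against 20) and weighed more in the summed percentage. Its excess among the 66 is a description, and whether this weight shaped it was not tested. Among the 19521 CpGs low in sperm and monocytes with 20% to 60% in fibroblasts, 334 (1.71%) differed between the fibroblast libraries. The monocyte libraries differed at 1 chosen CpG, with 0.0887% of all tested CpGs called, and the sperm libraries at 0, with 0.185% called. Each of these tests compares 2 libraries of 2 animals, and the low levels of sperm and monocytes leave little room for a difference there.

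With the reads of both libraries summed, logistic regression with a likelihood-ratio test called fibroblasts higher than sperm at 5510 of the chosen CpGs, beside 11.6% of all tested CpGs, and higher than monocytes at 5496, beside 3.34%. Both calls were made at 5494, beside 1.14%. The choice used the same contrasts, and these counts say only that the coverage of the chosen CpGs was enough for the test.

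CpGs were also chosen on 1 library of each cell type and read in the other 3, which this second choice did not use. The libraries numbered 1 chose 5641 CpGs. In the libraries numbered 2, 3271 of these (58.0%) met the same thresholds, against 0.431% of all tested CpGs, and fibroblasts were at least 25 points above both sperm and monocytes at 86.3%, against 1.87%. Their median in the unused fibroblast library was 76.9%. Fisher's exact test in the unused libraries called fibroblasts higher than both other cell types at 3450 (61.2%), beside 0.575% of all tested CpGs. The libraries numbered 2 chose 6652 CpGs, of which 3271 (49.2%) met the thresholds in the libraries numbered 1, against 0.366% of all tested CpGs. The 3271 are the same CpGs in both directions, namely those with all 6 libraries past their thresholds. The 2 shares are therefore not separate results and differ only in the number of CpGs chosen. Fibroblasts were at least 25 points higher than both at 82.6%, against 1.69%, their median was 72.7%, and 3608 (54.2%) were called, beside 0.523% of all tested CpGs. In both directions the fibroblast mean was lower in the library not used for the choice than in the one that chose, at 71.2% against 81.9% and at 67.8% against 81.2%. The unused fibroblast library was below 20% at 265 and 393 of the chosen CpGs.

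The CpGs with most reads showed both kinds of case. The 10 single CpGs with the highest total coverage included 2 on chromosome 7, 35 bp apart, with matching levels. The 2 had the same number of reads in every library and lay within the length of a read, so that they are not separate observations. At position 15879476 (UMD3.1), methylation was 91.7% in fibroblasts replicate 1 (44 of 48 reads) and 93.0% in replicate 2 (53 of 57), 11.1% and 13.6% in sperm, and 11.4% and 14.3% in monocytes. On chromosome 10, position 36019684 had 77.8% (42 of 54) and 69.6% (32 of 46) in fibroblasts, with no methylated read in the monocyte libraries and 4.76% and 0% in sperm. Both fibroblast libraries thus lay far above the other 4 at these positions.

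Other single CpGs met the sums through 1 library. At chromosome 8 position 24914753, fibroblasts replicate 1 had 30% (27 of 90 reads, 95% Wilson interval 21.5% to 40.1%) and replicate 2 had 83.7% (338 of 404, 79.7% to 86.9%). At chromosome 25 position 18898927, replicate 1 had 7.69% (2 of 26) and replicate 2 had 80.6% (175 of 217). At chromosome 10 position 59481124, it was the monocytes that differed, with 7.01% (11 of 157) in replicate 1 and 100% (12 of 12) in replicate 2. In all 3, the library with more reads decided the sum. Such imbalance was rare, since 1 library held at least 80% of the fibroblast reads at 28 chosen CpGs (0.508%, against 0.42% of all tested CpGs), and at 11 of these the other library was at or below 60%.

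Many of the chosen CpGs lay close to one another, in positions that the choice did not use. The median distance to the nearest chosen CpG was 11 bp. RRBS itself reads CpGs that lie close together, and only 2.63% of all tested CpGs had no other tested CpG within 100 bp. Distances and groups were not computed for all tested CpGs, so that the values below are a description. Joining CpGs no more than 1000 bp apart gave 1204 groups, of which 514 were single CpGs, 184 were pairs and 506 held 3 or more. These 506 groups held 4630 CpGs (84.0%), and the 145 groups of 10 or more held 2900 (52.6%). For the CpGs methylated only in monocytes, 69.0% lay in groups of 3 or more and 37.6% in groups of 10 or more, and for those methylated only in sperm 75.8% and 29.9%. Neighbouring CpGs are not independent, since 84.8% of the chosen CpGs had another within the 75 bp of a read.

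Within the 506 groups, 7792 CpGs were tested from the first to the last chosen CpG, and 59.4% of them were chosen. A further 24.8% were low in sperm and monocytes with 20% to 60% in fibroblasts, 11.8% had 20% or more in sperm or monocytes, and 3.99% were below 20% in fibroblasts. In 106 groups every tested CpG was chosen. The median span was 183.5 bp and the longest 4274 bp. Inside the groups, 1024 further CpGs were covered in the fibroblast libraries but not in all 6. They had means of 60.2% and 60.3%, and 52.1% of them exceeded 60%, against 46.8% of all such CpGs.

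The 10 groups with the most chosen CpGs held 45 to 73 each, and their values are the means over all tested CpGs from the first to the last chosen one, in UMD3.1 coordinates. The first was at chr20:69480688-69483087, with 73 of 82 tested CpGs chosen over 2400 bp. Its means were 89.3% and 93.6% in fibroblasts, 8.10% and 9.17% in monocytes, and 0.578% and 0.148% in sperm. Of its other CpGs, 8 had 20% or more in monocytes or sperm and 1 was partly methylated in fibroblasts. No single CpG of sperm exceeded 12.5%, whereas one reached 60% in monocytes replicate 2, where replicate 1 had 30.8%. A smaller group of 18 chosen CpGs ended 1542 bp before it.

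The second group, at chr2:108102899-108103960, had 70 of 84 CpGs chosen in 1062 bp. Fibroblasts had 81.6% and 76.5%, monocytes 1.26% and 1.63%, and sperm 0.665% and 0.469%. All of its 84 CpGs were below 20% in sperm and in monocytes, and the 14 that were not chosen had 20% to 60% in fibroblasts, so that only the degree of fibroblast methylation varied along it.

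Of the groups on chromosome 17, the one at chr17:74530851-74532181 had 60 of 77 CpGs chosen. The fibroblast means were 82.5% and 71.2%, those of monocytes 2.87% and 1.81%, and those of sperm 1.00% and 0.771%. Just before it lay 75 tested CpGs within 1500 bp with 12.1% and 11.6% in fibroblasts and 0.175% to 3.97% in the other libraries, none of them chosen. The 6 tested CpGs within 1500 bp after it went the other way, with 98.1% and 80% in fibroblasts, 46.7% and 60% in monocytes, and 19% and 0% in sperm. These 6 lay at 1443 to 1501 bp from its first chosen CpG, within the length of a read, so that they are not separate observations. After 1759 bp there was another group, of 39 chosen CpGs.

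At chr13:70063393-70064500, 52 of 68 CpGs were chosen, with 86.6% and 73.2% in fibroblasts, 4.28% and 5.34% in monocytes, and 1.20% and 0.939% in sperm. The fibroblast libraries lay 13.4 points apart there, and no CpG of the group was called between them. The 4 tested CpGs within 1500 bp before it had 52.5% and 56.6% in fibroblasts, 6.90% and 2.38% in monocytes, and 28.6% and 12.1% in sperm.

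The group at chr19:23657069-23660333 was the least complete, with 52 of 118 CpGs chosen. It had 77.0% and 75.5% in fibroblasts, 17.4% and 15.4% in monocytes, and 1.21% and 2.02% in sperm. Here 37 CpGs had 20% or more in monocytes or sperm and 29 were partly methylated in fibroblasts. Single CpGs reached 88.9% and 83.3% in the monocyte libraries, while none in sperm exceeded 20%. The 41 tested CpGs in the 1500 bp before it were low in every library, with 2.86% and 3.29% in fibroblasts, whereas the group itself averaged 77.0% and 75.5% there.

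The group at chr6:106058515-106060674 resembled it at a higher level. Of its 65 CpGs, 49 were chosen, and the means were 88.5% and 91.6% in fibroblasts, 13.0% and 12.5% in monocytes, and 0.585% and 0.325% in sperm. The 30 tested CpGs before it had 5.82% and 8.95% in fibroblasts. In both fibroblast libraries the group and the stretch next to it thus differed by more than 80 points.

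Another kind of border was seen at chr16:74982858-74983668, where 48 of 52 CpGs were chosen. Inside, fibroblasts had 84.5% and 87.8%, monocytes 2.25% and 2.91%, and sperm 0.415% and 0.968%. The 18 tested CpGs before it were already methylated in monocytes, at 77.6% and 72.6%, beside 91.9% and 94.8% in fibroblasts and 24.2% and 25.8% in sperm. On the other side, 10 CpGs had 13.0% and 15.9% in fibroblasts and 1.05% or less in the other 4 libraries. Along this stretch, the fibroblast methylation therefore reached further than that of monocytes.

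At chr18:23316352-23317410, 47 of 53 CpGs were chosen. Fibroblasts had 90.4% and 87.2%, monocytes 7.39% and 3.14%, and sperm 0.541% and 0.296%. The 16 CpGs before it had 27.4% and 26.2% in fibroblasts. The 5 CpGs after it had 100% in both fibroblast libraries, 36.7% and 55.0% in monocytes and at most 1.43% in sperm. These 5 lay at 2075 to 2115 bp from its first chosen CpG, also within the length of a read.

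The group at chr29:50949847-50951172 had 46 of 71 CpGs chosen, with 74.1% and 79.6% in fibroblasts, 6.87% and 10.0% in monocytes, and 0.561% and 0.18% in sperm. The 10 CpGs before it were methylated most in sperm, at 99.5% and 100%, with 88.5% and 90.8% in monocytes and 63.5% and 60.7% in fibroblasts. The order of the cell types was thus the opposite on the 2 sides of its first CpG.

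The last of the 10, at chr1:131249018-131253291, was the longest at 4274 bp and had 45 of 78 CpGs chosen. Its fibroblast libraries were the farthest apart of the 10, with 58.3% in replicate 1 and 74.5% in replicate 2, and 3 of its CpGs were called between them. Monocytes had 9.81% and 9.41%, and sperm 1.06% and 0.15%. It also held 10 CpGs below 20% in fibroblasts. The 7 CpGs before it had 89.8% and 82.9% in fibroblasts, 37.1% and 32.1% in monocytes, and no methylated read in sperm. The 3 CpGs after it had 60% and 48% in fibroblasts, 89.5% and 67.1% in monocytes, and 95.2% and 94.4% in sperm.

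**Figure D3:**
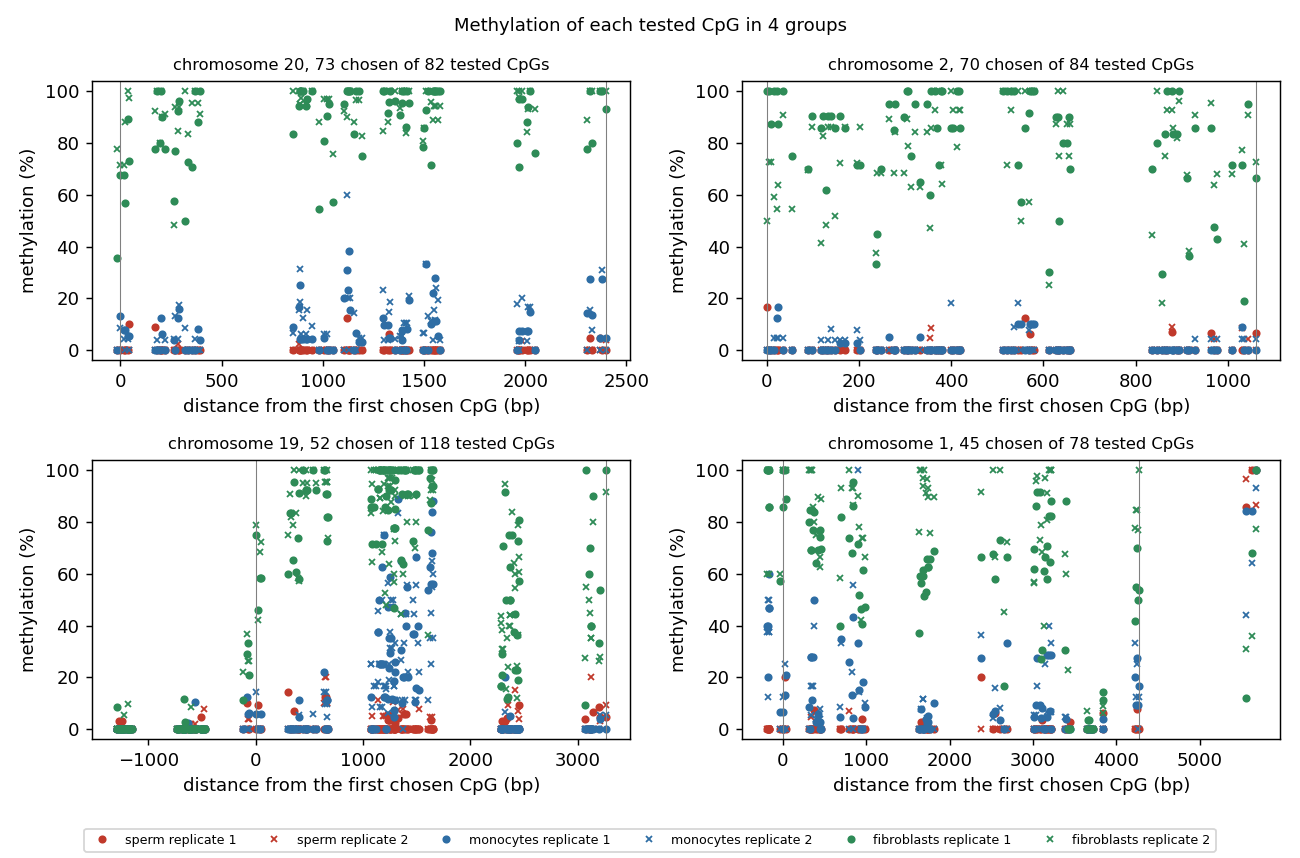
Methylation (y axis, %) of every tested CpG by its distance from the first chosen CpG of the group (x axis, bp) in the groups of chromosomes 20, 2, 19 and 1. Circles are replicates 1 and crosses replicates 2, sperm in red, monocytes in blue and fibroblasts in green, and grey lines mark the first and last chosen CpG. Fibroblast points fill the upper part in all 4, and the chromosome 19 group shows many monocyte points between them, up to 88.9% in replicate 1.

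The largest groups in which every tested CpG was chosen, picked after their values were seen, were at chr15:78431507-78432301 with 36 CpGs and at chr3:24217356-24217965 with 32. In the first, fibroblasts had 90.9% and 91.1%, both monocyte libraries had no methylated read at any of the 36 CpGs, and sperm had 1.26% and 1.28%. In the second, fibroblasts had 90.3% and 94.4%, monocytes 1.80% and 5.22%, and sperm 0.391% and 0.196%. The fibroblast libraries were thus nearly equal in the first group, and replicate 2 was the higher in the second.

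Over the 506 groups, the fibroblast libraries lay within 10 points of each other in 309 (61.1%) and at least 25 points apart in 37 (7.31%), with replicate 2 higher in 27 of the 37 and replicate 1 in 10. Among the 145 groups of 10 or more, 103 were within 10 points and 8 were at least 25 points apart, all 8 higher in replicate 2. The 4 of these with the widest gaps were picked after their values were seen. At chr11:27412372-27412817, replicate 1 had 35.8% and replicate 2 had 78.1%. At chr14:41979608-41979966, where all 14 tested CpGs were chosen, they had 49.9% and 87.8%. At chr26:23409271-23409601 they had 41.8% and 77.8%, and at chr26:49614753-49615230 they had 53.8% and 83.4%. Among these 145 groups, the widest gaps in the other direction were under 25 points, with 72.9% and 50.5% at chr3:33471338-33471976 and 92.9% and 70.3% at chr16:77411115-77411243. In all 6, the sperm and monocyte libraries averaged 10.9% or less. Replicate 2 had the higher median coverage over the chosen CpGs, but not in every group. At chr26:23409271-23409601 the median coverage was 22 reads in replicate 1 and 15 in replicate 2. The balance between the fibroblast libraries over the groups is a description, and whether read weight shaped it was not tested.

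**Figure D4:**
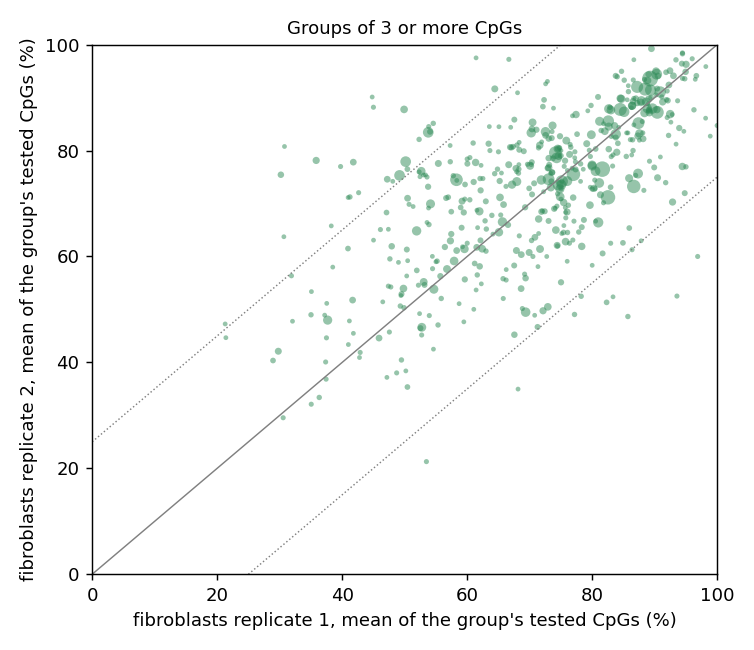
Mean methylation of all tested CpGs in each of the 506 groups, in fibroblasts replicate 1 (x axis, %) and replicate 2 (y axis, %), with the area of a point growing with the number of chosen CpGs. The solid line marks equal levels and the dotted lines a difference of 25 points. Of the points, 309 lie within 10 points of the solid line, and 27 lie on or beyond the upper dotted line against 10 beyond the lower one.

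Monocytes averaged 10% or more in 158 of the 506 groups and less than 2% in 115. Sperm averaged 10% or more in 45 and less than 2% in 305. Groups were also close to one another in places, since 34 of them had the next group of 3 or more within 5000 bp and 56 within 10000 bp.

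The tested CpGs around the chosen ones showed a different profile in each cell type. At 1 to 25 bp from the nearest chosen CpG, the 3834 other tested CpGs had 53.4% and 55.4% in the fibroblast libraries. The fibroblast means then went down to 42.4% and 44.0% at 101 to 200 bp and to 21.1% and 21.7% at 501 to 1000 bp, and rose again to 46.2% and 46.7% at 5001 to 10000 bp. In monocytes the means went up from 15.9% and 15.3% at 1 to 25 bp to 28.9% and 28.4% at 101 to 200 bp, came down to 19.5% and 19% at 501 to 1000 bp, and reached 52.1% and 51.8% at 5001 to 10000 bp. Sperm stayed low for longest, with 5.56% and 5.53% at 1 to 25 bp and 9.93% and 9.59% at 501 to 1000 bp, before 48.9% and 48.6% at 5001 to 10000 bp. The 2 libraries of a cell type differed by at most 2.05 points in any class, less than the gaps between the cell types up to 200 bp. These CpGs share reads and contrast with the chosen ones, so that their levels are a description.

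**Figure D5:**
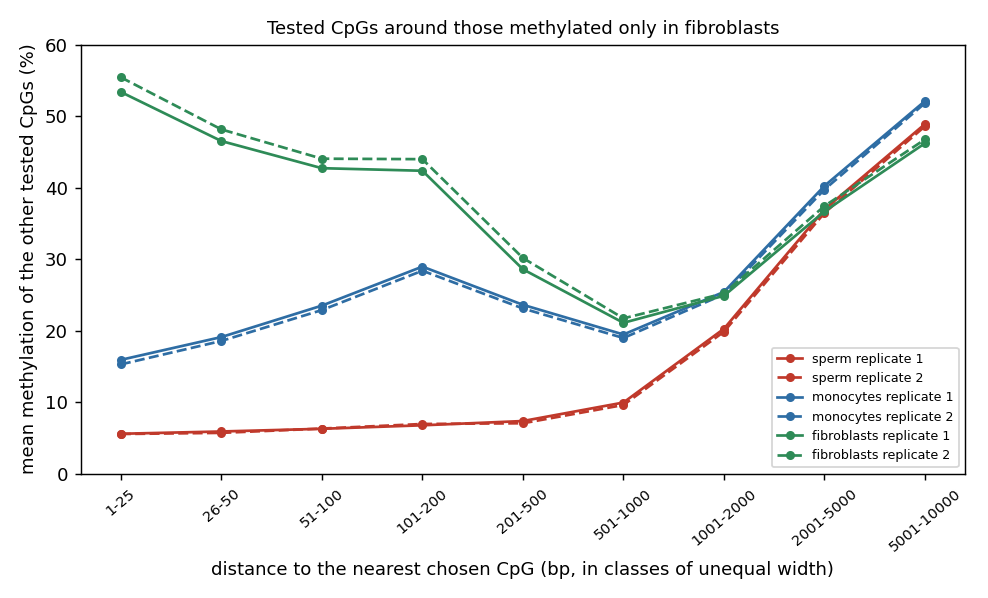
Mean methylation (y axis, %) of the tested CpGs that were not chosen, by distance to the nearest chosen CpG (x axis, bp, classes of unequal width). Solid lines are replicates 1 and dashed lines replicates 2 of sperm (red), monocytes (blue) and fibroblasts (green). Fibroblasts go down from 53.4% and 55.4% to 21.1% and 21.7% at 501 to 1000 bp, monocytes peak at 28.9% and 28.4% at 101 to 200 bp, and sperm stay below 10% up to 1000 bp.

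Around the CpGs methylated only in monocytes, the profile of the 2 somatic cell types was exchanged. At 1 to 25 bp from these, monocytes had 69.1% and 66.8% and fibroblasts 26.1% and 28%, and at 51 to 100 bp fibroblasts had 41.1% and 41.6%. Sperm had 7.44% and 7.51% at 1 to 25 bp. Around both kinds of CpG, the somatic cell type that was low at the chosen CpGs was thus higher at some distance from them, while sperm stayed at 12.7% or less up to 1000 bp.

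The share of neighbours low in both sperm and monocytes was 64.9% at 1 to 25 bp and 75.3% at 501 to 1000 bp. Of these low neighbours, 88.5% had more than 20% in fibroblasts at 1 to 25 bp, 51.7% at 51 to 100 bp, 18.8% at 201 to 500 bp and 7.99% at 501 to 1000 bp, against 2.13% beyond 10000 bp.

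The number of tested CpGs around the chosen ones was close to that of all tested CpGs and below that of the CpGs low in all 3 cell types. This number depends on coverage as well as on sequence, and the CpG density of the DNA itself was not measured. A median of 8 other tested CpGs lay within 100 bp to each side, against 7 for all tested CpGs, 11 for the CpGs low in all 3 cell types, 7 for those methylated only in monocytes and 4 for those methylated only in sperm. At least 10 such neighbours were found at 39.5% of the chosen CpGs, against 32.1% of all tested CpGs and 61.2% of those low in all 3.

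Long stretches with low methylation in sperm and monocytes were mostly low in fibroblasts too. Taking successive tested CpGs below 20% in both, with gaps of at most 200 bp, gave 17802 stretches of 10 or more CpGs, and 470 of them (2.64%) held a chosen CpG. The share of chosen CpGs was 4.84% in stretches of 1 to 4 CpGs, 2.48% in those of 5 to 9, 1.28% in those of 10 to 19, 0.455% in those of 20 to 49 and 0.331% in those of 50 or more. Stretches of 10 or more held 2930 of the 5512 CpGs (53.2%), but they also held most of the CpGs low in sperm and monocytes. The chosen CpGs were 0.594% of the 493402 CpGs in these stretches, against 4.84% of the 28145 in stretches of 1 to 4. Among the 470 stretches, chosen CpGs made up to 20% of the CpGs in 260, and they made at least 80% in 62, including 23 in which every CpG was chosen. The longest of the 62, with 84 CpGs, was the chromosome 2 group already described. Within the 470 stretches, 27.5% of the CpGs in the 20% of positions at each end were chosen, against 21.9% in the middle 20%, and the fibroblast means were 35.1% and 37.6% at the ends and 30.3% and 32.4% in the middle.

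The 29 autosomes all held some of the CpGs. The share of tested CpGs that were chosen had a median of 0.336% over chromosomes and ranged from 0.0717% on chromosome 27 to 0.761% on chromosome 20, which also held the largest group. The last 10% of the length of the chromosomes held 27.3% of the chosen CpGs, 33.5% of all tested CpGs and 17.3% of the CpGs low in all 3 cell types. Since a few groups hold many CpGs, these shares rest on fewer independent loci than CpGs.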

How the data were processed

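RRBS was measured in 6 libraries, 2 each of sperm, monocytes and fibroblasts, and libraries were grouped by their labelled cell type. The authors digested DNA with MspI and sequenced it as 75 bp paired-end reads. Their processing notes name Trim Galore 0.3.7, Bismark 0.14.3, Bowtie, FastQC, methylKit and the UMD3.1 genome. The coverage of each CpG was deposited as counts of reads, without normalization, both strands of a CpG together. The authors gave its methylation as a percent of these reads. Methylated reads were recovered here as coverage times percent, to the nearest whole number.

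CpGs of chromosomes 1 to 29 with 5 to 500 reads in all 6 libraries were tested. Groups joined chosen CpGs no more than 1000 bp apart, and the 10 groups with the most chosen CpGs and the 10 single CpGs with the most reads were described. The members, the thresholds and these lists were chosen with earlier results of these data known. Summed reads were compared by logistic regression with a likelihood-ratio test, and libraries by two-sided Fisher's exact tests, with Benjamini-Hochberg adjustment over all tested CpGs, an adjusted p below 0.01 and a difference of at least 25 points. Both were tested on simulated reads, drawn independently and without variation between animals, so that such variation was not covered. With 2 libraries per cell type, no exact test between libraries can go below p = 0.333, and tests on reads cover only counting error. Alternatives were other limits of coverage, thresholds, distances and windows, other tests, and leaving out each library. Genes, promoters and sequences were not analysed here, because no UMD3.1 annotation was used. The tools were Python 3.11.15, pandas 2.3.3, numpy 2.4.6, scipy 1.17.1, numba 0.67.0 and matplotlib 3.10.9.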

Additional observations from a re-analysis of the deposited data

Results flagged for a closer look

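Outside the autosomes, 17 of 28511 tested CpGs of chromosome X (0.0596%) met the same thresholds, against 0.357% of the autosomal CpGs. They fell into 9 groups, and their means were 68.7% and 69.5% in fibroblasts, 10.0% and 9.76% in monocytes, and 0.327% and 1.44% in sperm. On unplaced sequences, 4 of 10073 CpGs (0.0397%) did so, with 59.2% and 73.9% in fibroblasts, 11.9% and 12.5% in monocytes, and 0% and 2.50% in sperm. Both were picked out because they lie outside the CpGs compared. Bulls and cows differ in their number of X chromosomes, and the part of this in the chromosome X values was not tested.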

How the results depend on the processing

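The number of chosen CpGs followed the thresholds by construction. It was 3650 with at least 10 reads and 763 with at least 20 in every library, 3271 with each of the 6 libraries past its threshold, 2716 with fibroblasts above 80%, and 3623 with sperm and monocytes below 10%. It was 5469 to 6327 with 1 library left out, of which 82.7% to 98.1% of the 5512 remained, over the same tested CpGs. Averaging replicate percentages gave 5554 CpGs, with 5252 of the 5512 among them. A setting added after seeing the data, without CpGs at which 1 library held 80% or more of the fibroblast reads, gave 5484. The chosen CpGs called in both fibroblast comparisons numbered 3649 of the 3650 left with at least 10 reads, beside 12627 of all 950004 tested CpGs, and 5059 to 5433 with 1 library left out, beside 13002 to 17679 of 1542060. The replicate numbers name different animals, and deviations of same-numbered libraries were uncorrelated (r = 0.00168, -0.0041 and 0.00342), so that the block is no pairing. The Cochran-Mantel-Haenszel test with the replicate block called 5457 of the chosen CpGs against 5494, beside 15890 against 17644 of all tested CpGs. The share in groups of 3 or more was 80.7% with a distance of 200 bp, 85.2% with 5000 bp, and 80.0% to 83.4% with 1 library left out. The median number of neighbours was 5 within 50 bp and 15 within 250 bp, which follows from the window. With at least 10 reads, 61.8% and 52.2% of the CpGs chosen on replicates 1 and on replicates 2 met the thresholds in the other libraries. Calls between the fibroblast libraries numbered 66 with no minimum difference (1.2%, beside 0.357% of all tested CpGs) and 57 with at least 10 reads (1.56%, beside 0.518%). Coverage limits single CpGs, and 2 animals per cell type say little of the variation between animals.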
